A study of Mus musculus with 31 samples.

Results

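The comparison described here is that of mouse interleukin 2 (labelled mIL-2, here IL2) with phosphate-buffered saline (PBS) 0.75 h after injection. It was chosen by the time and treatment in the sample titles and covers 6 of the 31 ATAC-seq libraries of the series, 3 of IL2 and 3 of PBS. ATAC-seq counts insertions of the Tn5 transposase, which enters open DNA, so a higher count over a peak is read as a more accessible region. The cells were splenic regulatory T cells (Tregs) of RFP-FoxP3+ mice of the C57BL/6 strain, in which a red fluorescent protein reports Foxp3. IL2 mice received 5 µg of mIL-2 and PBS mice received 100 µL of PBS. Another group of 3 libraries from the same time point, from mice given 20 µg of a fusion of mIL-2 with CD25 (labelled FP), entered the model and helped to estimate the spread between libraries. The labels mention technical replicates of each biological sample. They do not state whether the 3 libraries of a group came from separate mice, nor an age or sex, so the p-values measure the spread between these libraries. The date-like part of the sample identifiers was the same for all 9 libraries of this time point.

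IL-2 binds a receptor whose alpha chain (CD25, gene Il2ra) is abundant on Tregs and whose beta and common gamma chains (Il2rb, Il2rg) carry the signal. The kinases JAK1 and JAK3 then phosphorylate STAT5, which enters the nucleus as a dimer and binds a palindromic DNA element whose core reads TTC, 3 further bases, GAA. Tregs make little IL-2 of their own and depend on this pathway for survival and for Foxp3 expression.

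After 0.75 h of IL2, 490 of 100468 tested peaks were more accessible than in PBS (0.488% of tested peaks, edgeR quasi-likelihood test, Benjamini-Hochberg adjusted p under 0.05) and 9 were less accessible (0.00896%). The risen peaks formed 388 separate regions after merging peaks that overlap. Their median log2 fold change was 1.78, with 10% below 1.25 and 10% above 2.51, beside a median of -0.02 over all tested peaks. In CPM (counts scaled to 1 M of the normalised library total), the median risen peak went from 3.93 in PBS to 13.3 in IL2. Of the rises, 479 were at least 2-fold on the linear scale (log2 fold change of 1 or more), 161 reached a log2 fold change of 2 and 21 reached 3. By level in PBS, 40 risen peaks had a mean under 1 CPM, beside 24902 of the 100468 tested peaks. Another 376 risen peaks lay from 1 to 10 CPM, and 74 lay at 10 CPM or more. The lowest mean log2 CPM of a risen peak was 0.08, where tested peaks reached down to -2.12. The part of low counts in the small number of closed regions was not tested. All 490 rises and all 9 falls had IL2 libraries lying wholly outside the range of the PBS libraries, which was true of 11.4% of all tested peaks (6.37% with IL2 higher). The number of rises depended on single libraries: it was 218 without PBS library 1, 187 without PBS library 3, 206 without IL2 library 1 and 201 without IL2 library 3. A core of 137 rises passed the test in the fit of all libraries and in each of the 6 fits that left out an IL2 or PBS library.

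Library totals were 18.6 to 28.8 M counts (M, mega) in PBS, 23.6 to 26.7 M in IL2 and 25.2 to 34.0 M in FP, and 21% to 32.2% of a library's counts lay in the most abundant peak. The biological coefficient of variation was 43.3% with 6 residual degrees of freedom. Peaks of the 8 Treg marker genes (Foxp3, Il2ra, Ikzf2 and others, 94 peaks) summed to 416 to 461 CPM in PBS and 495 to 509 CPM in IL2. The 9 T cell marker genes, among them the CD3 chains, summed to 248 to 343 CPM in PBS and 243 to 288 CPM in IL2. Of 10 B cell marker genes 5 had no tested peak, Ms4a1, Cd22 and Cd79b among them, and the rest summed to 37.5 to 45.1 CPM in PBS and 34.2 to 44.1 CPM in IL2. Of 14 myeloid marker genes 9 had no tested peak, Csf1r and Itgam among them, and the rest summed to 54.2 to 70.2 CPM in PBS and 51.0 to 55.3 CPM in IL2. The 5 CD8 T cell marker genes summed to 132 to 197 CPM in PBS and 121 to 148 CPM in IL2, and 8 of 9 NK cell marker genes to 111 to 131 CPM and 108 to 122 CPM. No peak of these CD8, B, NK or myeloid lists rose or fell. They held 39, 14, 26 and 18 tested peaks, so a count of 0 is near the background of 0.488%. Their median log2 fold changes were -0.43, -0.11, -0.11 and -0.24, beside -0.02 over all tested peaks. The median was -0.25 in the T cell list and 0.13 in the Treg list. In bulk libraries fewer cells of a type and less accessible DNA per cell cannot be told apart.

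The sequences under the risen peaks are shown first for a few loci, because the STAT core recurs in them. They are read from the RefSeq copy of GRCm38.p6, plus strand, 5′ to 3′, with each match to TTCNNNGAA in capitals and 30 bases of flank on either side. The first is in a Bcl2 intron (chr1:106607005-106607244), the second in a Cdk6 intron (chr5:3477993-3478098) and the third in a Birc3 intron (chr9:7863099-7863189). The fourth lies between genes upstream of Il2ra (chr2:11620323-11620482, deposited under the name Gm17490), and the fifth lies in a Ppp1r3f intron near Foxp3 (chrX:7567144-7567212). The last 4 come from a Lef1 intron (chr3:131149108-131149176), a Bach2 intron (chr4:32291523-32291698), the neighbourhood of Ccr7 (chr11:99180195-99180343) and an Nrp1 intron (chr8:128473172-128473240).
Bcl2: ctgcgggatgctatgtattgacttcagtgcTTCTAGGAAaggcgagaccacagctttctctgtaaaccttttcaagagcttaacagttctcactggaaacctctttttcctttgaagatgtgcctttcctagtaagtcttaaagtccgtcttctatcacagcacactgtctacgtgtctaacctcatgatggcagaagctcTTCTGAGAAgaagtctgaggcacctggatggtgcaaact
Cdk6: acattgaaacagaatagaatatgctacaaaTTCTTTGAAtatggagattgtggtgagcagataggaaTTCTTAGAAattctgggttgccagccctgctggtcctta
Birc3: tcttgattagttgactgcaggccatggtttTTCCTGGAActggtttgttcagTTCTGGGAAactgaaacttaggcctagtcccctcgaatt
Gm17490: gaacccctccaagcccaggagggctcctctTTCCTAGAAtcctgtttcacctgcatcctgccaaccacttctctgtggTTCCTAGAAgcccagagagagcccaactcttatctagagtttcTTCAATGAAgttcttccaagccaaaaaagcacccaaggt
Ppp1r3f: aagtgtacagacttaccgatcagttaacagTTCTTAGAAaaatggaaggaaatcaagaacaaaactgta
Lef1: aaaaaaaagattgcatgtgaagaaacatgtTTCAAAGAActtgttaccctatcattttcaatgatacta
Bach2: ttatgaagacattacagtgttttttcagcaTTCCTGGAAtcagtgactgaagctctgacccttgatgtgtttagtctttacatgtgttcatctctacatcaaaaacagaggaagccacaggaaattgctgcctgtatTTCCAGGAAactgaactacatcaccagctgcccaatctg
Ccr7: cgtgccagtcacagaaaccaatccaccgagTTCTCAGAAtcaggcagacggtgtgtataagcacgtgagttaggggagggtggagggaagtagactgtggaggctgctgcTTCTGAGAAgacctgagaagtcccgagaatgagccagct
Nrp1: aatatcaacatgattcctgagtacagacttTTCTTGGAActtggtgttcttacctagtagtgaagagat

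These loci carry 1 to 3 copies of the core in the stretch shown, and the 3 bases between its arms differ from copy to copy. The stretches were cut around matches, so the presence of a core in them was fixed in advance. Other risen peaks, among them those of Nfkb1, Traf6, Ptpn1 and Nt5e, held no core and are not shown. Matches were taken from anywhere in the peak. Some, among them the Birc3 copies and TTCTAGGAA in Bcl2, lie outside the central bases used for the shares below. The upstream Il2ra stretch holds the letters TTCCTAGAA at 2 places, and TTCTAGGAA in Bcl2 is that element read on the opposite strand. Bach2 holds TTCCTGGAA and TTCCAGGAA, which are the same element read on opposite strands. The same is true of TTCTCAGAA and TTCTGAGAA in Ccr7, the latter of which is also in Bcl2.

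Over the whole comparison the core was in the central 300 bases of 343 of 490 risen peaks (70.0%) and of 10.3% of the other tested peaks. Because the core is a palindrome, a match on either strand is the same match. The share of peaks that rose went up with the number of copies: 0.164% with none (147 of 89784), 2.40% with 1 (236 of 9829), 12.4% with 2 (98 of 793) and 14.5% with 3 or more (9 of 62). The median log2 fold change over all tested peaks of each kind, called or not, was -0.04, 0.16, 0.67 and 1.21 in the same order. The shift thus covered peaks that did not pass the threshold too. Among peaks with a mean log2 CPM of 3 to 4, 10.2% of those with a match rose (108 of 1061) and 0.686% of those without (58 of 8457).

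With other spacings of the arms the contrast was smaller. With 2, 4 or 5 bases in place of 3 between TTC and GAA, the element was in 11.0%, 18.4% and 10.6% of risen peaks and in 8.28%, 7.79% and 8.01% of other peaks. Among peaks with a single match, each core counted together with its reverse complement, the share that rose was 5.48% for TTCCTAGAA (27 of 493), 4.68% for TTCTAAGAA (31 of 662) and 4.18% for TTCCAGGAA (43 of 1028). It was 0.388% for TTCATGGAA (1 of 258), and none of 232 peaks with TTCCCGGAA or of 216 with TTCAATGAA rose. Where a peak held 2 matches, 2.99% rose if their starts lay at most 18 bases apart (2 of 67), 16.4% at 19 to 24 bases (9 of 55), 14.6% at 25 to 50 bases (30 of 206), 15.9% at 51 to 100 bases (35 of 220) and 8.98% beyond 100 bases (22 of 245). The nearest match lay a median of 62 bases from the peak centre in risen peaks with a match and 107 bases in other peaks with a match.

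Motifs of other factor families were searched on both strands. The AP-1 element TGANTCA was in 16.3% of risen and 10.1% of other peaks, the TCF/LEF element CTTTGA in 32.4% and 20.3%, and the RUNX element TGTGGT in 29.4% and 24.0%. The FOX element TGTTTAC was in 4.69% and 4.29%. The CTCF motif was in 1.02% of risen and 9.82% of other peaks, the NF-kB motif in 8.98% and 16.9%, the ETS core CCGGAA in 5.92% and 9.75% and the E-box CACGTG in 3.47% and 5.96%. Risen peaks had a median GC content of 43.0% where uncalled peaks had 48.7%, and a median width of 677 bases where uncalled peaks had 377, and the part of these properties in the motif shares was not tested. A match describes letters and is not evidence of binding.

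**Figure D1:**
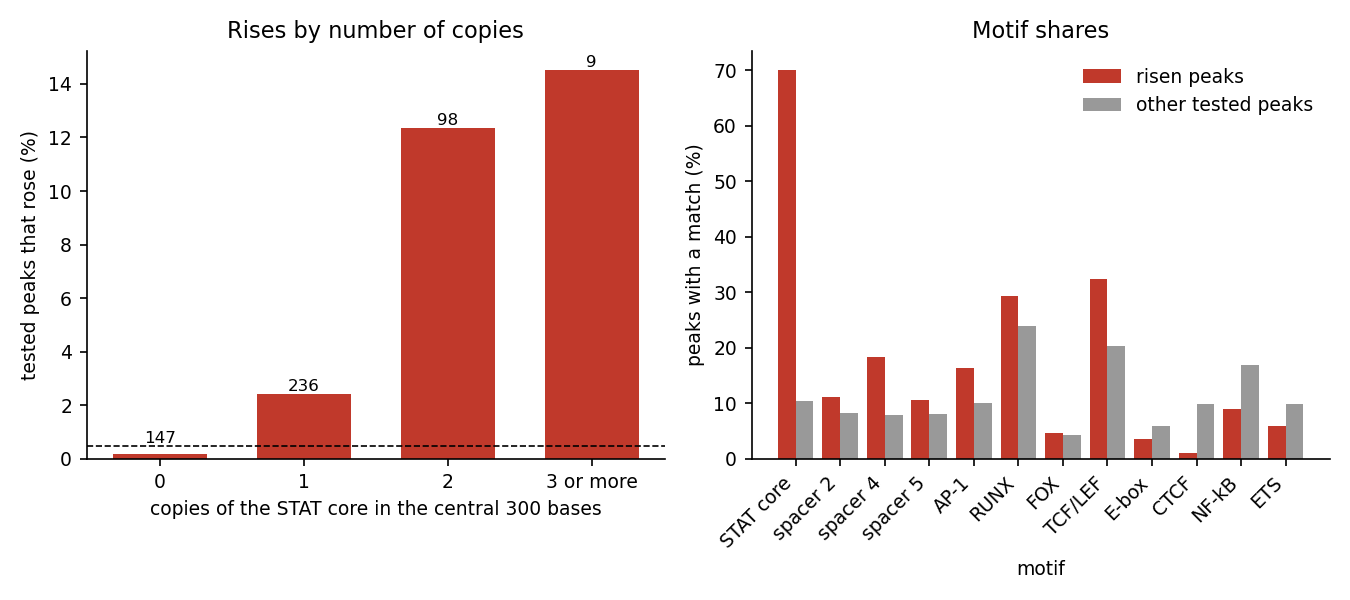
Left, percent of tested peaks that rose (y axis) by copies of the STAT core in the central 300 bases (x axis), with the number of risen peaks above each bar and the share over all tested peaks, 0.488%, as a dashed line. Right, percent of risen (red) and other tested (grey) peaks with each motif, where spacer 2, 4 and 5 are the core with other distances between its arms; the core itself stands at 70.0% and 10.3%.

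Introns held 53.9% of the rises, beside 31.8% of tested peaks. Peaks between genes made up 24.7% of the rises, beside 29.9% of tested peaks. Overlapping peaks were counted separately in these shares. After merging, rises were in 196 of 22404 tested intron regions, 117 of 21538 intergenic regions and 36 of 18519 promoter regions. Counting by peak thus widened the gap between introns and the space between genes. The share that rose over all tested peaks was 0.488%. By the deposited class, 264 of 31917 intron peaks rose (0.827%), 121 of 30083 intergenic peaks (0.402%), 41 of 6418 peaks at 3' ends (0.639%), 17 of 3028 exon peaks (0.561%) and 47 of 29022 promoter peaks (0.162%). Among abundant peaks, with a mean log2 CPM above 4, the gap between classes was wider: 52 of 788 intron peaks rose (6.60%), 32 of 800 intergenic peaks (4.00%) and 9 of 6121 promoter peaks (0.147%). Peaks with the STAT core rose more often in each class, from 1.71% of promoter peaks with a match and 0.0445% without to 4.65% of intron peaks with a match and 0.283% without. By distance to the nearest annotated start site, the share was 0.156% within 1 kb, 0.499% at 1 to 5 kb, 0.828% at 5 to 10 kb, 0.689% at 10 to 50 kb and 0.247% beyond 100 kb.

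Even the promoter-labelled rises were seldom at the main start of the gene they are named for. Of 43 such peaks whose named gene was found in GENCODE M21, 12 lay within 1 kb of its outermost start (27.9%), beside 74.8% of all tested promoter-labelled peaks. Overlapping peaks of 1 site, as at Abhd18 and Eri1, were counted separately here. The promoter-labelled rise of lowest p was at Bcl2 and lay 397 bp from the start of Gm37053, a transcript annotated inside the Bcl2 gene. The promoter-labelled Nfkb1 peak lay 962 bp from an internal start of Nfkb1.

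**Figure D2:**
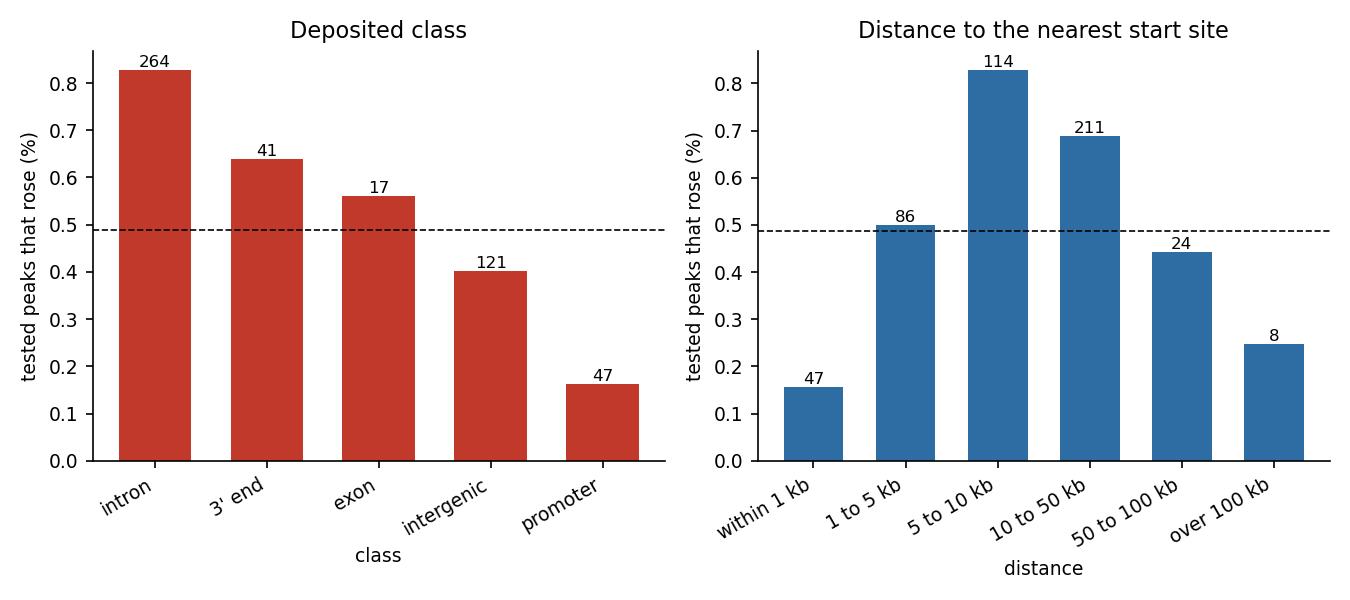
Percent of tested peaks that rose (y axes) by deposited class (left) and by distance to the nearest annotated start site (right), with the number of risen peaks above each bar and 0.488% as a dashed line. Promoter peaks and peaks within 1 kb of a start have the lowest bars.

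The share of peaks that rose in each gene list is given below beside 0.488% over all tested peaks. Among survival genes 6 of 180 tested peaks rose (3.33%) and none fell, with a median log2 fold change of 0.12 over the list. Of the 6, 5 belonged to Bcl2, which encodes the founding anti-apoptotic protein of its family. Its lead peak (chr1:106606895-106607640) read 5.55, 7.95 and 6.88 CPM in the PBS libraries and 32.3, 26.7 and 30.8 CPM in the IL2 libraries. The groups were far apart, and the log2 fold change was 2.14 ± 0.22 (SE, n = 3 per group, edgeR adjusted p = 0.00029). Here and below the SE was derived from the log2 fold change and its quasi-likelihood F statistic. That fit held all 9 libraries, FP included. The other 4 Bcl2 peaks lay from 106599117 to 106617349 on chromosome 1, all intronic, with log2 fold changes from 1.01 to 2.16, and were called in 1 to 3 of the 6 leave-one-out fits. The largest of them by level (chr1:106612369-106613381) was already open in PBS, at 24.5, 26.9 and 22.3 CPM, and reached 53.3, 50.8 and 59.9 CPM. In the fit of all libraries no other gene had rises in more than 3 separate regions. In all, 42 Bcl2 peaks were tested. Birc3, which encodes the ubiquitin ligase cIAP2, had an intronic peak at 5.67, 5.97 and 7.86 CPM in PBS and at 15.4, 18.7 and 16.2 CPM in IL2. Its log2 fold change was 1.36 ± 0.26 (edgeR adjusted p = 0.0203), a call made in 0 of the 6 leave-one-out fits.

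In the cell cycle list 2 of 148 peaks rose (1.35%, beside 0.488% of all tested peaks), both of Cdk6, a kinase that drives passage through G1, and the list median was -0.02. The 37 tested Cdk6 peaks had a median log2 fold change of -0.16. The lead Cdk6 peak (chr5:3477644-3478642, intronic) went from 8.50, 6.60 and 9.81 CPM in PBS to 30.3, 28.8 and 40.1 CPM in IL2, a log2 fold change of 1.99 ± 0.24 (edgeR adjusted p = 0.00101). The highest Myc peak, at its promoter, stood at 17.1, 14.5 and 13.9 CPM in PBS and 20.5, 18.4 and 19.4 CPM in IL2, and the highest Ccnd2 peak at 20.1, 20.1 and 20.2 CPM and 34.8, 23.6 and 22.5 CPM. Neither passed the test, with log2 fold changes of 0.36 ± 0.23 and 0.42 ± 0.22.

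Among genes of NF-kB and the TNF receptors 6 of 224 peaks rose (2.68%), with a median of 0.09. They belonged to Nfkb1, which encodes p105 and its product p50, to Traf6, an adaptor with ubiquitin ligase activity, to Nfkbiz, a nuclear IkB protein (3 overlapping peaks), and to Lta, lymphotoxin alpha. The Nfkb1 peak (chr3:135604427-135605216) had tight groups, with 5.02, 5.68 and 4.79 CPM in PBS and 21.5, 22.8 and 20.0 CPM in IL2, and held no STAT core (log2 fold change 2.05 ± 0.24, edgeR adjusted p = 0.000702). The Traf6 peak went from 4.67, 6.02 and 4.47 CPM to 16.5, 13.4 and 19.6 CPM, and it too held no core. At Nfkb1 43 peaks were tested and at Traf6 6, and 1 rose at each gene. The Lta peak read 4.98, 4.38 and 1.16 CPM in PBS and 19.4, 13.1 and 9.40 CPM in IL2, and lost its call in all 6 leave-one-out fits.

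Treg identity genes gained 6 rises among 282 peaks (2.13%), each at a different gene, and their list median was 0.10. The genes were Nt5e (CD73, which makes adenosine), the zinc-finger factors Ikzf1 (Ikaros), Ikzf2 (Helios) and Ikzf3 (Aiolos), the receptor Nrp1 and Izumo1r (folate receptor 4). At Nrp1, Nt5e and Ikzf2 the rise was 1 of 61, 9 and 38 tested peaks, whose median log2 fold changes were 0.35, -0.12 and -0.002. Several of the 6 risen peaks were almost closed in PBS. Nrp1 (chr8:128472973-128473343, intronic) read 1.57, 0.385 and 0.512 CPM in PBS and 5.47, 4.56 and 6.33 CPM in IL2, a log2 fold change of 2.70 ± 0.48 (edgeR adjusted p = 0.0107, called in 4 of 6 leave-one-out fits). Nt5e read 0.268, 0.144 and 0.186 CPM in PBS and 3.94, 2.1 and 4.28 CPM in IL2 (log2 fold change 4.06 ± 0.59). Ikzf2 had a smaller change, from 1.80, 1.69 and 0.930 CPM to 5.95, 4.92 and 5.95 CPM (log2 fold change 1.92 ± 0.38, edgeR adjusted p = 0.0262), and was called in 0 of 6 leave-one-out fits. In the effector Treg list 1 of 249 peaks rose (0.402%, near the share over all peaks), at Tnfrsf8 (CD30), with a log2 fold change of 1.04 ± 0.22 (edgeR adjusted p = 0.0404) that was called in 0 of 6 such fits.

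Among genes of resting and lymphoid-homing T cells 10 of 427 peaks rose (2.34%), in 6 separate regions, with a list median of 0.04. Among them were peaks of the transcription factors Lef1, Bach2, Klf3 and Foxp1 (5 overlapping peaks) and of Ccr7, a chemokine receptor that brings T cells into lymph nodes. At Lef1, Bach2 and Ccr7 the rise was 1 of 18, 57 and 14 tested peaks, whose median log2 fold changes were -0.12, 0.09 and 0.15. The Lef1 peak (chr3:131148829-131149481, intronic) went from 0.804, 1.35 and 0.279 CPM in PBS to 6.99, 7.77 and 6.93 CPM in IL2, a log2 fold change of 3.15 ± 0.46 (edgeR adjusted p = 0.0029). The Bach2 peak (chr4:32291137-32291970, intronic) was open in PBS, at 13.8, 13 and 12.0 CPM, and rose to 35.1, 36.9 and 29.0 CPM (log2 fold change 1.38 ± 0.20). The Ccr7 peak, 25299 bp from the Ccr7 start, went from 0.651, 1.59 and 1.02 CPM to 6.15, 5.24 and 6.67 CPM (log2 fold change 2.47 ± 0.40). These 3 peaks were each called in all 6 leave-one-out fits, and the groups were separated at each, as at every risen peak.

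None of 147 peaks of the IL-2 receptor and JAK-STAT list rose or fell, and the list median was -0.00. With 0.488% of all tested peaks risen, a count of 0 in a list of this size is near the background. The highest Il2ra peak, intronic, read 6.36, 9.83 and 12.0 CPM in PBS and 16.6, 16.7 and 19.9 CPM in IL2, with a log2 fold change of 0.92 ± 0.27 (edgeR adjusted p = 0.271). Its 24 tested peaks had a median log2 fold change of 0.75 and a highest of 1.55, with a lowest edgeR adjusted p of 0.163. The corresponding values of the highest peak were 0.75 ± 0.28 for Il2rb, -0.23 ± 0.30 for Il2rg, -0.20 ± 0.38 for Stat5a and 0.05 ± 0.34 for Stat5b. That Il2rb peak lies between genes, 7053 bp from a start of Tmprss6. The 4 tested Il2rb peaks had a median of 0.73 and a highest of 1.49, with a lowest edgeR adjusted p of 0.0617. Among inhibitors of cytokine signals 2 of 189 peaks rose (1.06%), at Ptpn1, a phosphatase that acts on Janus kinases, and at Spry1, an inhibitor of growth factor signalling. The Ptpn1 peak went from 0.996, 0.915 and 0.326 CPM to 7.80, 8.73 and 5.57 CPM. Cish, a STAT5 target that encodes a SOCS-family inhibitor, had 6 tested peaks with a median log2 fold change of 1.32 and a highest of 1.71, and none passed (lowest edgeR adjusted p = 0.0784). Its highest peak by level read 9.88, 13.2 and 9.40 CPM in PBS and 13.4, 12.1 and 12.3 CPM in IL2, and the groups overlapped. The highest Socs2 peak had a log2 fold change of 0.67 ± 0.26.

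Some risen peaks near these genes were deposited under another gene's name. Of 417 list genes, 42 had a risen peak within 50 kb of a start (10.1%), beside 413 of 15391 protein-coding genes with a tested peak (2.68%), and for 15 of the 42 it was under another name only. The lists were chosen with results of these data known, so these shares are a description. The loci named next were chosen after their values were seen. Upstream of Il2ra, 5 risen peaks in 3 regions carried the name Gm17490, 13050 to 22529 bp from the Il2ra start. The clearest (chr2:11620060-11620497) went from 0.421, 1.35 and 0.512 CPM in PBS to 6.59, 5.08 and 5.23 CPM in IL2, a log2 fold change of 2.90 ± 0.46 (edgeR adjusted p = 0.00502). It was almost closed in all 3 PBS libraries, and it holds the 3 cores printed above.

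Near Foxp3, the master factor of Tregs, the promoter peak did not pass the test and its groups overlapped, at 12.8, 15.8 and 13.9 CPM in PBS and 13.4, 18.9 and 14.1 CPM in IL2 (log2 fold change 0.13 ± 0.24). That peak is also named for Ppp1r3f, Gm36995 and Flicr. It lies 25 bp from a start of Flicr and 234 bp from one of Ppp1r3f, so its count is not particular to Foxp3. The other tested Foxp3 peak (chrX:7583723-7584442, intronic) holds 3 cores and read 12.3, 8.86 and 7.86 CPM in PBS and 17.4, 19.2 and 21.2 CPM in IL2. The groups were separated, but the log2 fold change of 0.99 ± 0.24 missed the threshold (edgeR adjusted p = 0.0964). A peak in an intron of Ppp1r3f (chrX:7566950-7567384), 6477 bp from the Foxp3 start, did pass. It went from 0.919, 1.69 and 0.605 CPM to 4.94, 5.43 and 5.61 CPM (log2 fold change 2.32 ± 0.46, edgeR adjusted p = 0.0238), with the call kept in 1 of 6 leave-one-out fits.

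Near Ctla4, an inhibitory receptor of Tregs, the peak named Gm38137 (chr1:60879923-60880626, 6726 bp from the Ctla4 start) went from 4.56, 6.21 and 4.28 CPM to 19.6, 14.0 and 16.4 CPM. Its log2 fold change was 1.73 ± 0.28 (edgeR adjusted p = 0.00568, called in 5 of 6 leave-one-out fits), while none of 13 peaks named Ctla4 rose. Further rises of this kind lay 14046 bp from Gzmb (granzyme B) with a log2 fold change of 1.90 (called in 1 of 6 leave-one-out fits), 25528 bp from Klf6 with 1.52 and 34258 bp from Rgs1 with 1.17. Distance on the chromosome does not show which gene a peak acts on.

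**Figure D3:**
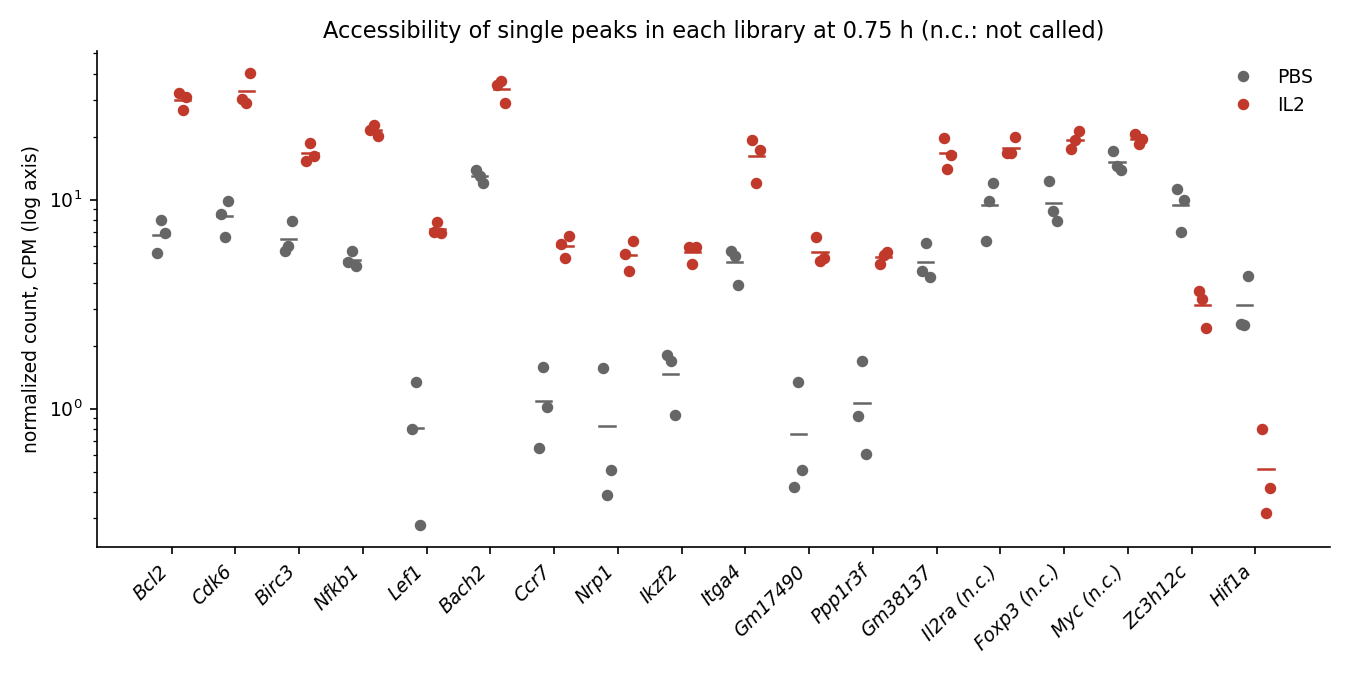
Normalised count in CPM (y axis, log axis) of 18 peaks in the 3 PBS libraries (grey) and 3 IL2 libraries (red), with the group mean as a line; each peak is named by its first deposited gene. The first 13 rose, Il2ra, Foxp3 (the intronic peak) and Myc were not called, and Zc3h12c and Hif1a fell.

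Shares near the 0.488% over all tested peaks were found in 3 further lists and say nothing particular about their genes. In the T cell receptor list 2 of 589 peaks rose (0.340%), at Prkcq (protein kinase C theta, called in 2 of 6 leave-one-out fits) and at Nck1, an adaptor (1 of 6). In the trafficking list 1 of 271 rose (0.369%), at Itga4 (integrin alpha 4), from 5.71, 5.39 and 3.91 CPM to 19.2, 12.0 and 17.3 CPM. Among genes of PI3K, mTOR and metabolism 1 of 289 rose (0.346%), at Inpp4b, a phosphatase of inositol lipids (2 of 6), and 1 fell. In the ubiquitin ligase list 3 of 184 rose (1.63%) and 1 fell. The rises were at the ligases Nedd4l (called in 5 of 6 leave-one-out fits) and Wwp1 (4 of 6) and at Ndfip2, an activator of that ligase family (1 of 6). No peak rose or fell among 155 of AP-1 and immediate early genes, 307 of helper lineage factors and cytokines, 94 of interferon response genes and 83 of constitutive genes, whose medians were 0.11, 0.10, 0.04 and 0.12, and counts of 0 in lists of these sizes are near the background of 0.488%. In the erythroid list 1 of 30 peaks rose (3.33%), 1551 bp from the start of Hbb-bt, a beta globin gene, from 2.83, 3.47 and 3.67 CPM to 15.6, 11.1 and 18.3 CPM, while the list as a whole summed to 81.5 to 114 CPM in PBS and 75.8 to 90.8 CPM in IL2.

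Many of the largest and most certain rises were at genes outside these lists. The peak of lowest p was near Gm47635 (chr13:85502803-85503228) and went from 5.48, 4.82 and 4.00 CPM to 29.7, 26.8 and 23.7 CPM (log2 fold change 2.48 ± 0.23, edgeR adjusted p = 0.000221). An intronic peak of Cyth1, which activates ARF GTPases and acts in integrin adhesion, went from 2.95, 2.79 and 3.44 CPM to 24.1, 17.2 and 24.6 CPM. A peak in Sema4d, a semaphorin of lymphocytes, went from 1.42, 2.79 and 2.56 CPM to 23.6, 17.1 and 14.7 CPM. An intronic peak of Fhit went from 6.13, 4.72 and 4.6 CPM to 32.9, 25.6 and 33.2 CPM. Each of these was called in all 6 leave-one-out fits, with IL2 libraries far above PBS. The largest fold among peaks with a mean log2 CPM of at least 1 was in a Septin 9 (Sept9) intron, at 4.19 ± 0.50, from 0.460, 0.578 and 0.186 CPM to 11.9, 5.43 and 5.27 CPM. Other large rises of this kind were at Lncpint, a long noncoding RNA (3.42 ± 0.54), Kcnj15, a potassium channel gene (3.25 ± 0.48), and Camk2d, a calcium-dependent kinase gene (3.23 ± 0.49).

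The 9 falls were sparse and less secure. Zc3h12c, whose product belongs to a family of RNA-degrading enzymes, had a promoter peak at 11.3, 6.98 and 9.91 CPM in PBS and 3.66, 3.33 and 2.42 CPM in IL2 (log2 fold change -1.58 ± 0.34, edgeR adjusted p = 0.0389). An intronic peak of Hif1a, the hypoxia-inducible factor, went from 2.53, 2.50 and 4.33 CPM to 0.804, 0.317 and 0.417 CPM (log2 fold change -2.60 ± 0.56, edgeR adjusted p = 0.041). A Gm20139 intron peak went from 31.8, 28.5 and 24.6 CPM to 15.3, 11.0 and 12.1 CPM. The fall at Gm10800 was small, -0.22 ± 0.05, in a peak that held 77349 CPM on average in PBS. The named falls kept their call in at most 1 of the 6 leave-one-out fits.

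FP was compared with the same PBS libraries, so its values are not independent of those above. In FP 2 peaks rose against PBS by the same test (0.00199%), the lead Bcl2 peak and the peak near Gm47635. Falls in FP were not counted. The lead Bcl2 peak read 21.3, 22.0 and 22.5 CPM in FP, between PBS and IL2, and the Cdk6 peak 26.9, 26.7 and 18.1 CPM. The log2 fold changes against PBS were 1.69 in FP and 2.14 in IL2 for Bcl2, and 1.53 and 1.99 for Cdk6. The doses differed and the difference between the agents was not tested here.

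Libraries of 16 h after injection share no PBS library with the comparison above. In these, no peak of 100771 rose (0%) or fell by edgeR, with 1605 higher (1.59%) and 2040 lower (2.02%) at an unadjusted p under 0.05, and DESeq2 called 2. The 490 peaks had a median log2 fold change of 0.04 at 16 h, with 10% below -0.54 and 10% above 0.53, beside 1.78 at 0.75 h. All peaks tested at 16 h had a median of 0.00. The median level of the 490 was 3.64 CPM in PBS and 3.91 CPM in IL2 at 16 h. At that time 268 were higher in IL2 (54.7%, beside 50.4% of all tested peaks), and 5 had a log2 fold change of 1 or more. The lead Bcl2 peak averaged 4.79 CPM in PBS and 5.48 CPM in IL2 at 16 h. The difference between the times was not tested, and time and date of the experiment cannot be told apart.

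**Figure D4:**
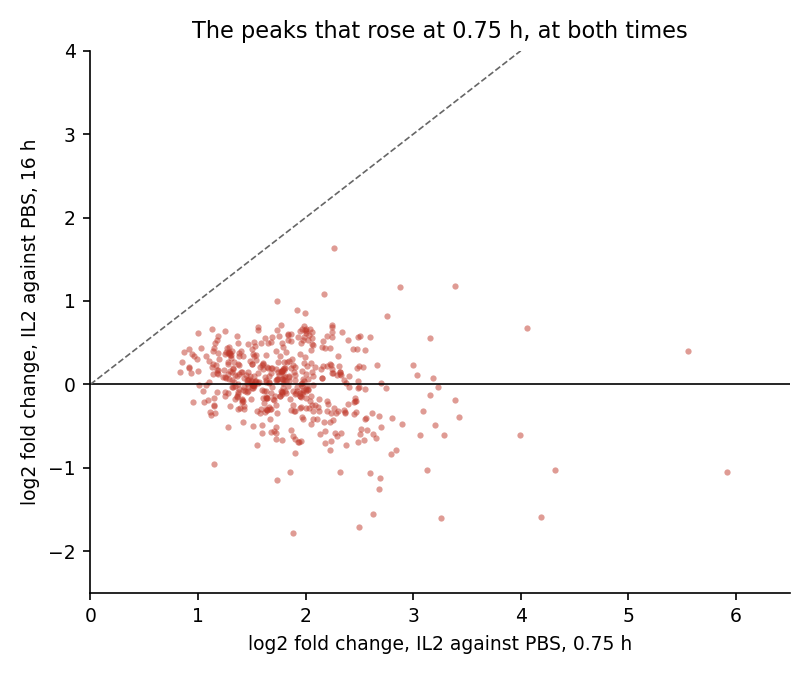
Log2 fold change of IL2 against PBS at 0.75 h (x axis) and at 16 h (y axis) for each of the 490 peaks that rose at 0.75 h, which were chosen by their value on the x axis. Points gather around 0 at 16 h (median 0.04), below the dashed line of equal change.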

How the data were processed

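Peak read counts were analysed as deposited. Per the series design text and the submitters' processing notes, the authors mapped reads to GRCm38 with bwa-mem, called peaks with MACS2 2.1.2 and kept those reproducible between pseudo-replicates. Which program counted reads, and whether duplicates were removed, is not given in the sources used here. In the deposited table there are unnormalised counts for 104979 peaks, with peak class and gene name. The first count column is listed as an other unit because commas inside gene names shift it, so lines of the deposited table were read from their right end. CPM values were computed from these counts.

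The 9 libraries of 0.75 h were fitted together in edgeR 4.0.16 (R 4.3.3) with TMM factors, filterByExpr (minimum count 10, minimum total 15), the quasi-likelihood test and Benjamini-Hochberg adjustment over 100468 peaks, threshold 0.05. Total counts per library were 18.6 to 34.0 M. Between libraries of a group, chi-square per degree of freedom was 9.18 to 26.4, so no library repeats another within counting noise. DESeq2 1.42.0, other scalings, filters and sample sets, a replicate block and leave-one-out were alternatives. Positions were annotated with GENCODE M21, and motifs were searched in the central 300 bases on both strands.

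Groups came from sample titles. At 16 h, columns name the group but not the sample. The comparison, the gene lists, the motifs and the rule for named peaks were chosen with earlier results of these data known, so they give no independent support. Named peaks were the 10 largest rises and up to 10 falls with a mean log2 CPM of at least 1, the 5 of lowest p, the called peaks of each list, the 3 of lowest p per class, genes with 4 or more risen regions, and a panel of 10 IL-2 pathway genes. Values of a few named peaks are not reported here.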

Additional observations from a re-analysis of the deposited data

Results flagged for a closer look

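In 15 of the 78 named peaks, every IL2 library lay on 1 side of the PBS mean at 0.75 h. At 16 h every IL2 library lay on the opposite side of the PBS mean of that time. How many of all tested peaks do so was not counted, so the 15 are a description. The difference between the times was not tested in any of the 15, and none passed the test at 16 h. Each value below is the log2 fold change at 0.75 h, followed by that at 16 h. The values were 4.19 and -1.59 for Sept9, 3.42 and -0.40 for Lncpint, 3.25 and -1.60 for Kcnj15, and -1.46 and 0.33 for 1700011L03Rik. The values were 2.56 and -0.40 for Fhit, 2.84 and -0.79 for Cyth1, 2.05 and -0.48 for Nfkb1, and 1.71 and -0.56 for Traf6. The values were 3.13 and -1.03 for Ikzf3, 2.33 and -0.58 for Klf3, and 1.38 and -0.29 for Ndfip2. The values were 1.51 and -0.50 for Inpp4b, 2.18 and -0.56 for Hbb-bt, 0.22 and -0.22 for Cish, and 2.32 and -1.05 for Ppp1r3f. All but 1700011L03Rik, which fell, and Cish, which was not called, rose at 0.75 h.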

How the results depend on the processing

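Each of the 490 rises kept a log2 fold change above 0 under every alternative run. This says little, because they were chosen as rises in these same libraries, with every IL2 library above every PBS library. All 490 kept their call by DESeq2 (100%), and 176 kept it without PBS library 3 (35.9%). The number of rises was 1020 by DESeq2 and 286 with the library total as a covariate, an alternative added after the data were seen. The falls numbered 96 and 0 in the same fits. With the replicate number of the titles as a replicate block, 941 peaks rose and 42 fell. The labels do not say that a number marks a shared mouse or day. Deviations of same-numbered IL2 and PBS libraries from their group means correlated at 0.0925, 0.194 and 0.0684, and each of these libraries correlated best with its own number in the other group, which is a hint from the data only. Falls numbered 16 in a fit of all 31 libraries and 5 with library totals as the only scaling. Leaving out 1 library at a time gave 187 to 582 rises and 0 to 11 falls. At 16 h no alternative called any of the 490. The direction of 3 uncalled peaks turned without a single library, the leave-one-out values running from -0.16 to 0.22 for Stat5b, from -0.49 to 0.074 for Stat5a and from -0.038 to 0.22 for the Foxp3 promoter: Stat5b to -0.046, -0.01 and -0.16 without IL2 library 1, IL2 library 2 and PBS library 3, Stat5a to 0.074 and 0.014 without IL2 library 3 and PBS library 2, and the promoter peak of Foxp3 (also named Ppp1r3f, Gm36995 and Flicr) to -0.038 without IL2 library 2. The cause was not tested. The share of rises with the STAT core was 85.3% over whole peaks and 45.7% over the central 150 bases, where other peaks had 13.4% and 5.21%.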

Other observations

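Some genes outside the lists had rises in several separate regions. They were picked for these rises, so the counts are a description, beside 0.488% risen over all tested peaks. Camk2d, Dthd1, Fhit, Gm7266 and Mdfic each had 3 risen peaks in 3 regions, of 44, 28, 87, 24 and 41 tested peaks. Naf1 had 7 of 11 peaks risen in 2 regions, Flacc1 5 of 12 and Eri1 4 of 7, also in 2 regions each. Risen peaks of these 3 genes overlap one another, so the fractions do not count separate sites. Enpp1, which encodes an enzyme that cleaves extracellular nucleotides, had 2 rises: an exonic peak went from 8.12, 12.2 and 12.3 CPM in PBS to 31.1, 31.1 and 37.4 CPM in IL2, and a peak at its 3' end from 5.09, 8.62 and 7.81 CPM to 25.0, 24.0 and 22.9 CPM.

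Among the 137 rises that passed in every fit leaving out an IL2 or PBS library, 98 held the STAT core (71.5%), and 69 were labelled intron, 36 intergenic and 11 promoter. Of the 147 risen peaks with no core in their central 300 bases, 17.7% held the AP-1 element, beside 9.85% of other peaks without a core, and 26.5% held the TCF/LEF element, beside 19.6%.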
